A study of Mus musculus with 12 samples.

Results

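The genes described here encode the B cell receptor and the proteins that work next to it: the receptor chains Ighm, Cd79a and Cd79b, the surface proteins Ms4a1 and Cd22, and the kinases Blk, Lyn, Syk and Btk. Members were taken as every probe on the array whose target name equals, with case ignored, 1 of the 9 symbols IGHM, CD79A, CD79B, MS4A1, CD22, BLK, LYN, SYK and BTK. They are written below in mouse form. This gave 12 probes of 7 genes among 45281 probes in all. No probe carries the name Ighm, but 2 probes are listed as IGH-6, a RefSeq synonym of Ighm, and both were added. No probe carries Cd79a or a RefSeq synonym of it, so Cd79a was not analysed here. Of the 14 probes, 13 probes of 7 genes were detected on at least 3 of the 12 arrays and were tested. The only Lyn probe was detected on 0 of 12 arrays.

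The samples were 6 Smchd1 null and 6 Smchd1 wildtype end-stage lymphomas of C57BL/6 mice, each measured on 1 Illumina MouseWG-6 version 2 array. Both groups shared the Eµ-Myc transgene, which places the oncogene Myc under an immunoglobulin heavy chain enhancer active in B lineage cells. The null animals were homozygous for a gene trap allele of Smchd1, which encodes a protein of the SMC family that takes part in gene silencing. The cells were sorted before RNA extraction, with sort markers not given in the sources used here, and whether replicates were different animals is not in the labels. P-values therefore reflect sample-to-sample spread, which could be technical.

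The B cell receptor is a membrane immunoglobulin bound to a dimer of Cd79a and Cd79b, whose tails carry the signalling motifs. When antigen binds, Src family kinases (Lyn, Blk and relatives) phosphorylate those tails, Syk docks on them, and Syk and Btk then pass the signal to adaptors and to phospholipase C gamma. Cd22 is a sialic acid binding inhibitory receptor that recruits phosphatases once it is phosphorylated, and Ms4a1 is CD20, a membrane protein of B cells from the late precursor stage onward. Eµ-Myc lymphomas are known to arise at either the precursor or the mature B cell stage.

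Smchd1 was checked first, because it tests the labels. Its brightest probe averaged a log2 intensity of 5.78 ± 0.67 in null lymphomas and 10.15 ± 0.31 in wildtype lymphomas (SD, n = 6 each), a log2 change of -4.37 (limma, adjusted p = 2.13e-05). Its dimmer tested probes, ILMN_1230552 and ILMN_2853225, had log2 changes of -0.89 and -0.80 and did not pass. The groups overlapped on ILMN_1230552 and not on ILMN_2853225. The number of probes detected per array ran between 14905 and 17724, and arrays correlated pairwise at 0.85 to 0.97. Each of the 2 BeadChips (slides of 6 arrays) carried 3 null and 3 wildtype samples. All values below are log2 intensities after background correction and quantile normalization, a scale on which 1 unit is a doubling, and levels of different genes are not set against each other because probes differ in brightness.

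Libraries that stood apart are named here before the results. Null 2 and wildtype 2 lay below the other 10 lymphomas for Ms4a1 and for most of the B lineage genes listed for comparison, and null 1 and wildtype 1 lay above the other 10 for Ms4a1, Blk and Cd22. Each group holds 1 lymphoma of either kind. In these bulk samples, fewer cells of a type and less RNA per cell cannot be told apart.

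Between genotypes, no receptor gene passed the test. Of the 13 probes tested, 0 passed an adjusted p of 0.05 in limma (adjusted p = 1.00 for each), beside 0.0159% of all 18921 probes tested, and 0 had an unadjusted p under 0.05, beside 1.43% of all probes. In 12 of the 13 the estimate was below 0, with a median log2 change of -0.28, beside 50.5% of all probes. The 13 probes stand for 7 genes that vary together across lymphomas, so that count is not 13 separate observations. No member had groups that did not overlap, beside 0.0793% of all probes.

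**Figure D1:**
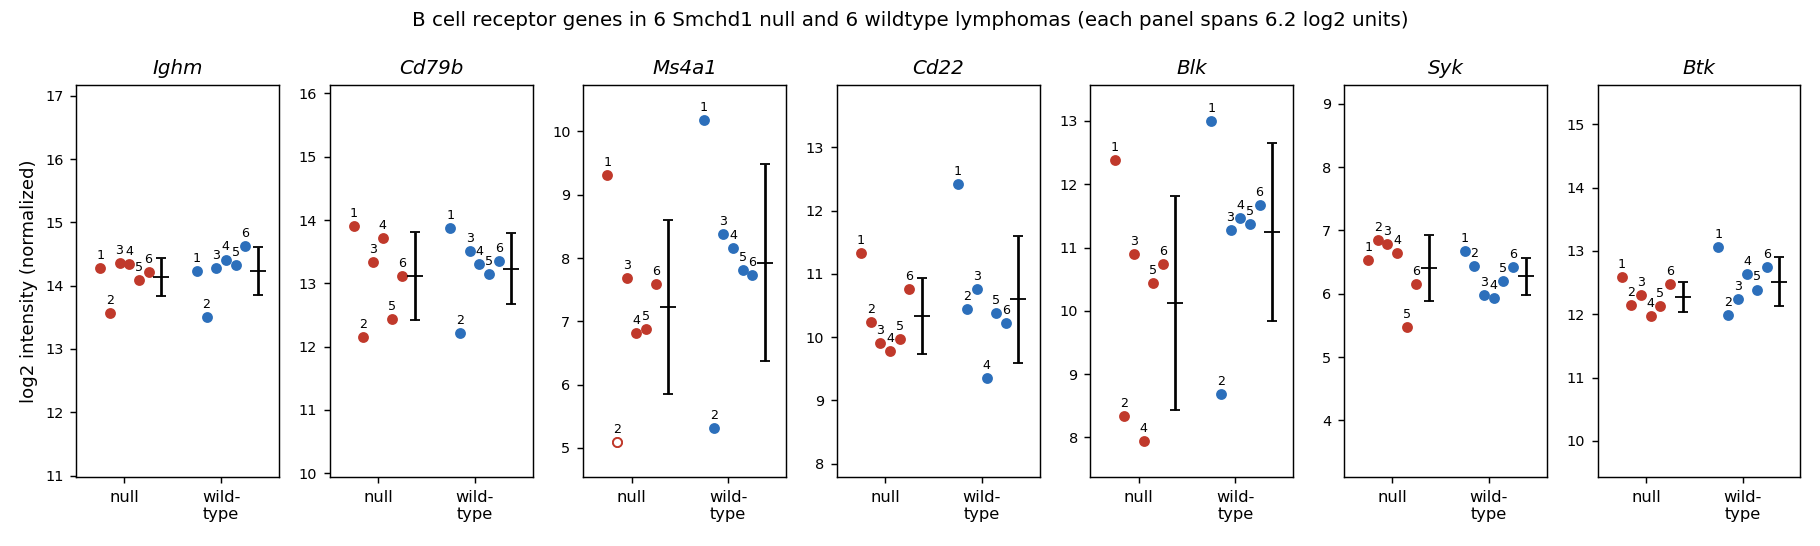
Log2 intensity of the brightest probe of 7 receptor genes (vertical axis, with a range of equal length in each panel) in each Smchd1 null lymphoma (red) and each wildtype lymphoma (blue), with replicate numbers, and mean ± SD as black bars (n = 6 each). Open circles mark arrays on which the probe was not detected. The groups overlap for each gene shown, and null 2 and wildtype 2 are the lowest of their groups for Ighm, Cd79b and Ms4a1.

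Ighm encodes the constant region of the mu heavy chain, the part of the receptor that makes it IgM. Its brighter probe (ILMN_2744657) had a lowest, median and highest value of 13.57, 14.25 and 14.35 in null lymphomas, against 13.51, 14.30 and 14.63 in wildtype lymphomas. The groups overlapped over nearly their whole ranges, and the log2 change was -0.09 (SE 0.21). The other Ighm probe (ILMN_2744660) ran between 12.36 and 14.46 in null and between 13.22 and 14.62 in wildtype lymphomas, with a log2 change of -0.28. On both probes null 2 and wildtype 2 were the lowest of all 12 lymphomas. Both probes were detected on all 12 arrays, so mu heavy chain RNA was measured in each lymphoma.

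Cd79b is the signalling partner chain of the receptor. Its brighter probe (ILMN_2610822) read 13.91, 12.16, 13.34, 13.71, 12.44 and 13.11 in null 1 to null 6, against 13.88, 12.21, 13.51, 13.30, 13.15 and 13.35 in wildtype 1 to wildtype 6. Low values were found in both groups, in null 2, null 5 and wildtype 2. The log2 change was -0.12 (SE 0.34) on this probe and -0.28 on the other (ILMN_2661523), and the probes followed each other with a Pearson r of 0.946 over the 12 arrays, given as a description.

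Ms4a1 (CD20) was 1 of the most variable members. It read 9.31, 5.09, 7.69, 6.81, 6.88 and 7.58 in null 1 to null 6, against 10.17, 5.32, 8.37, 8.15, 7.81 and 7.73 in wildtype 1 to wildtype 6. Null 2, where its probe was not detected, and wildtype 2 were lowest, and null 1 and wildtype 1 highest. Over the 11 lymphomas in which it was detected, Ms4a1 spanned 28.9-fold, while the genotype difference was -0.70 on the log2 scale (SE 0.75, 95% interval -2.31 to 0.92). That difference moved with single lymphomas: it was -0.25 without wildtype 1, -0.27 without null 2, -1.12 without null 1 and -1.22 without wildtype 2, and none of these passed. Without null 2 and wildtype 2 together, an alternative added after seeing the data, 0 member probes passed.

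Cd22, the inhibitory receptor, was measured by 3 probes. The brightest (ILMN_3159170) read 11.33, 10.25, 9.91, 9.78, 9.97 and 10.75 in null 1 to null 6, against 12.41, 10.45, 10.76, 9.35, 10.38 and 10.22 in wildtype 1 to wildtype 6. Unlike Ms4a1, it was not lowest in null 2 and wildtype 2, and the log2 change was -0.26 on this probe, -0.26 on ILMN_1221913 and -0.31 on ILMN_3079866. The dimmest probe, ILMN_3079866, was detected on 6 arrays. On all 3 probes null 1 and wildtype 1 were the highest lymphomas. The direction of the Cd22 difference rested on wildtype 1: without it the brightest probe gave 0.10.

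Blk is a Src family kinase largely restricted to B lineage cells, and it too spread widely. Its brightest probe (ILMN_2976441) read 12.38, 8.33, 10.90, 7.94, 10.44 and 10.74 in null 1 to null 6, against 13.00, 8.68, 11.28, 11.47, 11.37 and 11.67 in wildtype 1 to wildtype 6. The lowest lymphomas were null 4, null 2 and wildtype 2. The log2 changes were -1.12 (SE 0.79), -1.21 (SE 0.73) on ILMN_2976440 and -0.51 on ILMN_2697505, and none passed. On the brightest probe the change was -0.68 without null 4, and on the dimmest it was -0.086 without wildtype 1, -0.11 without null 2, -0.30 without null 4, -0.85 without wildtype 2 and -0.90 without null 1. On the brightest probes null 4 was lowest of all for Blk and, by a narrow margin, for Btk (11.98). Its Cd79b value of 13.71, by contrast, was the third highest of the 12, and its Ighm value of 14.34 lay inside the range of the others. On the other Blk probes null 4 was low but not lowest, at 7.61 (ILMN_2976440) and 5.44 (ILMN_2697505). Null 2 was lower on both, at 7.48 and 4.52 (not detected), and wildtype 2 was lower on ILMN_2697505, at 5.30.

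Syk, the kinase that docks on the phosphorylated receptor tails, was the only member with an estimate above 0. Its probe (ILMN_1252460) had a lowest, median and highest value of 5.47, 6.59 and 6.85 in null lymphomas, against 5.93, 6.31 and 6.67 in wildtype lymphomas. The null values spread on both sides of the wildtype range, and the log2 change was 0.13 (SE 0.25). Btk, the Tec family kinase downstream of Syk, spread little on its probe (ILMN_1235934). It had 11.98, 12.23 and 12.59 in null lymphomas, against 11.98, 12.51 and 13.07 in wildtype lymphomas, with a log2 change of -0.24 (SE 0.21). Lyn, the main Src family kinase of B cells in textbook accounts, gave 4.35 to 4.95 in null lymphomas and 4.38 to 4.72 in wildtype lymphomas on its single probe (ILMN_2596887), not distinguishable from negative controls on any array. That is a statement about this probe, since 1 undetected probe does not show that Lyn RNA was absent.

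**Figure D2:**
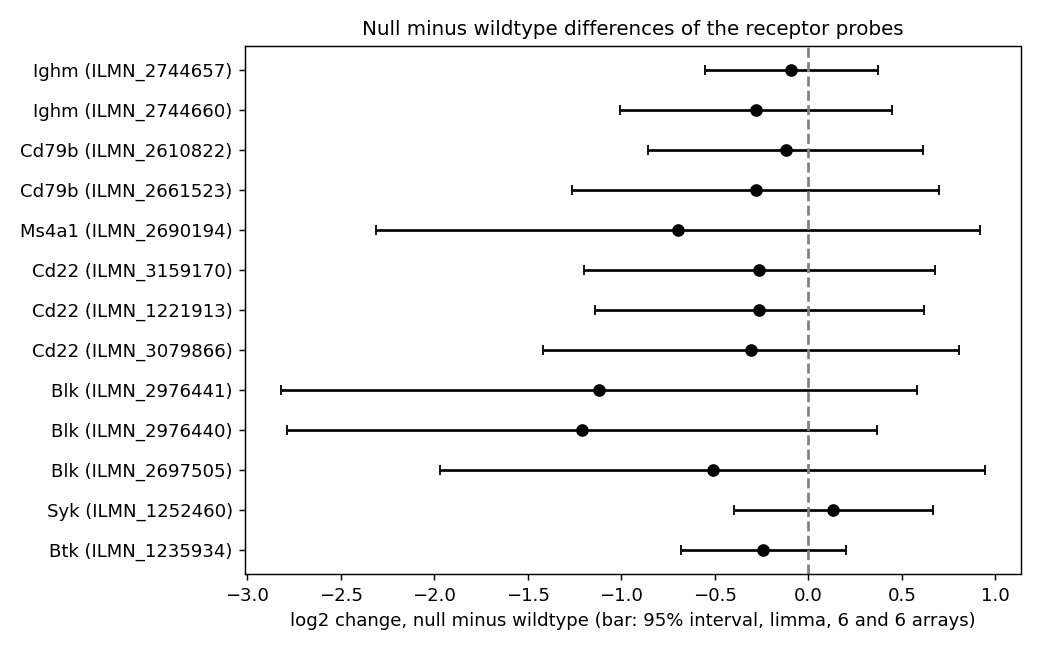
Null minus wildtype log2 change (horizontal axis) of each of 13 tested probes with its 95% interval from limma (6 null and 6 wildtype arrays), 1 row per probe. Each interval includes 0, and 12 of the 13 estimates lie below 0.

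The members differed in how much they varied across the 12 lymphomas. The SD over all arrays was 1.59 for Blk and 1.45 for Ms4a1, values reached by 3.71% and 4.84% of the 12845 genes tested. Cd22 followed at 0.80 and Cd79b at 0.60, against a median of 0.47 over all genes. Syk at 0.41, Btk at 0.33 and Ighm at 0.33 varied less than that median. The placing of Ighm depends on the probe: ILMN_2744660, its other probe, had an SD of 0.61 and spanned 4.78-fold. On their brightest probes Ighm and Btk spanned 2.17-fold and 2.13-fold between the lowest and the highest lymphoma, where Blk spanned 33.4-fold. The order of the spans describes these probes.

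Members followed Ms4a1 to different degrees across the 12 lymphomas. With 6 relations computed by permutation and adjusted together, 4 passed 0.05. Blk rose and fell most closely with Ms4a1, at a Pearson r of 0.90 (permutation, adjusted p = 0.00018) and a Spearman rho of 0.916 (adjusted p = 0.00048). Cd79b had an r of 0.859 (permutation, adjusted p = 0.00084) and a rho of 0.741 (adjusted p = 0.0153). Btk had an r of 0.804 (permutation, adjusted p = 0.00294) and a rho of 0.755 (adjusted p = 0.0153). Ighm passed on r alone, at 0.689 (permutation, adjusted p = 0.0213) with a rho of 0.42 (adjusted p = 0.214). Cd22 did not pass, with an r of 0.585 (permutation, adjusted p = 0.0562) and a rho of 0.455 (adjusted p = 0.213), and neither did Syk, with an r of -0.06 (permutation, adjusted p = 0.848) and a rho of -0.18 (adjusted p = 0.574).

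These r values can be read against all other genes. Of 12844 other tested genes, 0.304% had an r with Ms4a1 at or above that of Blk, 0.888% at or above that of Cd79b and 1.98% at or above that of Btk. For Ighm the share was 6.17%, for Cd22 11.5% and for Syk 53.9%. An r of at least 0.7, which Blk, Cd79b and Btk reached, was reached by 5.6% of all genes.

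The relations were also computed without the lymphomas at the ends of the Ms4a1 range. Null 2 and wildtype 1 lay farthest from the Ms4a1 median of 7.71. Without them r was 0.834 for Blk (permutation, adjusted p = 0.0124), 0.781 for Cd79b (adjusted p = 0.0235) and 0.712 for Btk (adjusted p = 0.0313). It was 0.702 for Ighm (adjusted p = 0.0644), 0.34 for Cd22 and -0.0059 for Syk. On rho Blk alone passed, at 0.879 (permutation, adjusted p = 0.0096). Cd79b had a rho of 0.564 (permutation, adjusted p = 0.193) and Btk of 0.6485 (adjusted p = 0.144). With null 1, null 2, wildtype 1 and wildtype 2 all left out, a setting added after seeing the data, Blk alone passed on r, at 0.763 (permutation, adjusted p = 0.0303). Cd79b was at 0.316, Ighm at 0.351 and Btk at 0.595. On rho none passed there, with Blk at 0.786 (permutation, adjusted p = 0.169). That setting leaves 8 lymphomas and a narrower Ms4a1 range, so at this size the relations of Cd79b, Ighm and Btk were not shown without those 4 lymphomas. Ighm lost its call without null 2 alone (r = 0.544) or wildtype 2 alone (r = 0.559), and Btk without null 1 and wildtype 1 (r = 0.652), also added after seeing the data.

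Within BeadChip 1 (6 lymphomas) r was 0.878 for Blk, 0.771 for Cd79b, 0.893 for Btk, 0.652 for Ighm, 0.815 for Cd22 and 0.18 for Syk. Within BeadChip 2 (6 lymphomas) it was 0.974 for Blk, 0.983 for Cd79b, 0.717 for Btk, 0.771 for Ighm, 0.301 for Cd22 and -0.48 for Syk. None passed on either BeadChip by exact permutation, with 6 samples each. The signs for Blk, Cd79b, Btk, Ighm and Cd22 were positive on both BeadChips, and that for Syk was not.

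**Figure D3:**
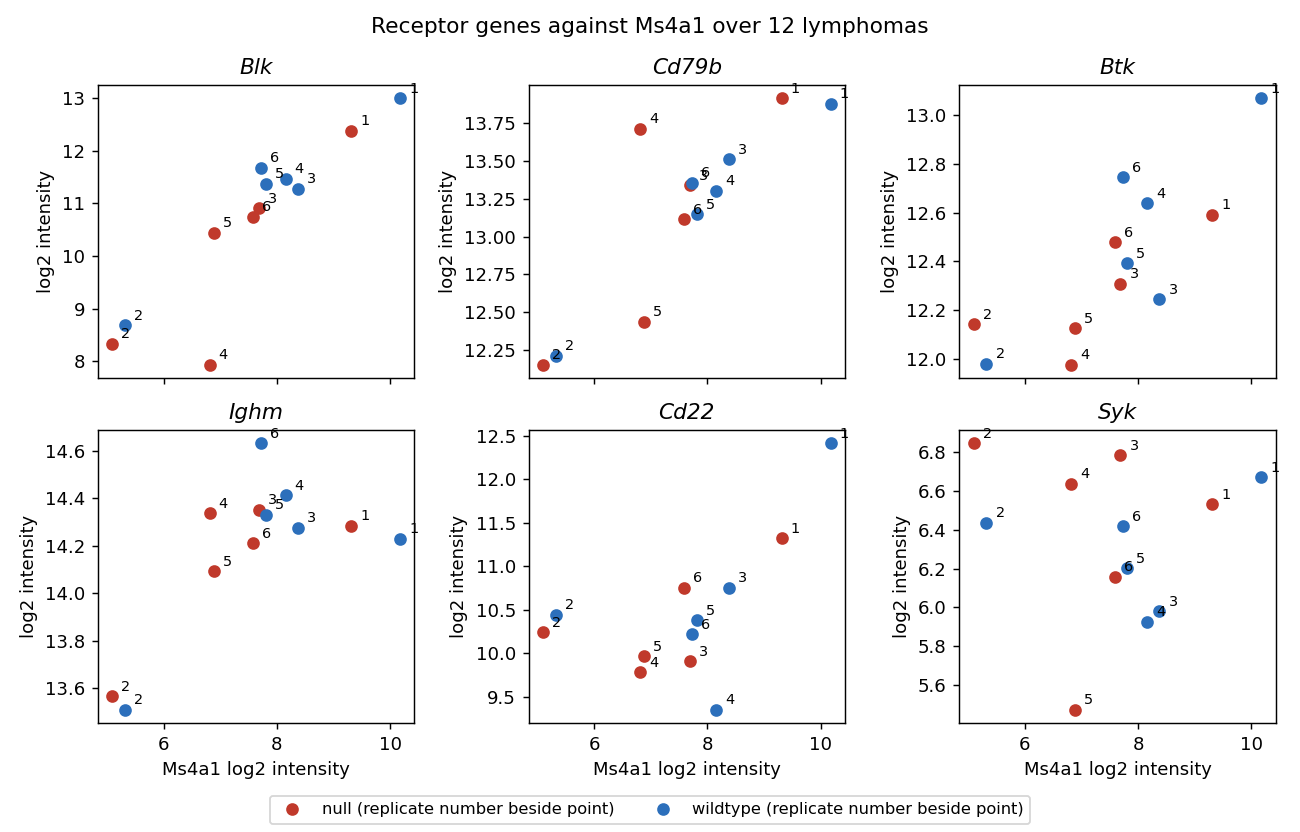
Log2 intensity of 6 receptor genes (vertical axes, each on its own range) against that of Ms4a1 (horizontal axis) in 12 lymphomas, null in red and wildtype in blue, with replicate numbers. Blk (r = 0.90), Cd79b (0.859) and Btk (0.804) rise with Ms4a1, null 4 falls below the Blk trend, and Syk (-0.06) shows no trend.

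Null 2 and wildtype 2, the lymphomas with the lowest Ms4a1, are described one by one beside the range of the other 10, with no test, since Ms4a1 itself chose them. Of the brightest probes, those of Ighm and Cd79b were below the other 10 in both lymphomas, as 5.43% of 12845 tested genes were. Ighm was 13.57 in null 2 and 13.51 in wildtype 2, against 14.09 to 14.63 in the others. Cd79b was 12.16 in null 2 and 12.21 in wildtype 2, against 12.44 to 13.91 in the others. On Cd79b probe ILMN_2661523 wildtype 2 was below the others, but null 2, at 11.88, was above their lowest value of 11.77. Blk was 8.33 in null 2 and 8.68 in wildtype 2, inside a range of 7.94 to 13.00 that null 4 extends downward. On its dimmest probe (ILMN_2697505) both were below the others, at 4.52 (not detected) in null 2 and 5.30 in wildtype 2, against 5.44 to 9.14. On their brightest probes Cd22 and Btk lay inside the range of the other 10 in both lymphomas. Cd22 was 10.25 in null 2 and 10.45 in wildtype 2. Btk was 12.14 in null 2 and 11.982 in wildtype 2, where the others' lowest value was 11.978, in null 4. Cd22 probe ILMN_3079866, detected in neither lymphoma, was below the others in both, at 4.48 and 4.55 against 4.76 to 7.40. Syk was 6.85 in null 2, above the others' highest value of 6.79, and 6.44 in wildtype 2, inside their range.

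Some B lineage genes were also below the other 10 in both of these lymphomas, and those named next were chosen after their values were seen. Pou2af1, a B cell coactivator of octamer-dependent transcription, was 4.91 in null 2 and 4.49 in wildtype 2, against 10.70 to 13.64 in the others. Cd81, a tetraspanin counted in the coreceptor list and not in the B lineage list, was 8.88 in null 2 and 7.09 in wildtype 2, against 10.44 to 13.13. The transcription factors Ebf1 (4.38 in null 2 and 4.57 in wildtype 2, against 5.36 to 7.82) and Pax5 (4.28 in null 2 and 4.40 in wildtype 2, against 4.61 to 6.21) were below the others too. Pou2af1, Ebf1 and Pax5 were not detected in either lymphoma, while both Ighm probes, both Cd79b probes and the 2 brighter Blk probes were detected in each. Of the 11 B lineage genes listed, 7 were below the other 10 in both lymphomas, beside 5.43% of all tested genes. The list mean was 5.57 in null 2 and 5.82 in wildtype 2, against 7.28 to 9.57. Spib, Cd83, Cr2 and Ptprc did not follow. Spib was 8.56 in null 2 and 9.25 in wildtype 2, inside 7.88 to 9.98, and Cd83 was 7.44 and 7.06, inside 4.55 to 11.60. Cr2 lay inside the others' range in both, and Ptprc in wildtype 2 only.

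The signalling lists were counted in the same way. Of 24 tested adaptors and effectors, 2 were below the other 10 in both lymphomas and 1 was above. Of 17 inhibitory receptors and phosphatases, 2 were below and 2 above, and of 6 other kinases 0 were below and 0 above, beside 5.43% of all tested genes below and 5.6% above. Bank1, an adaptor, was low, at 4.41 in null 2 and 4.32 in wildtype 2 against 5.17 to 8.84 in the others. Siglecg, an inhibitory receptor related to Cd22, was 8.72 in null 2 and 8.86 in wildtype 2, against 9.15 to 12.26. Blnk, the adaptor that links Syk to phospholipase C gamma, was inside the others' range of 8.88 to 10.85, at 9.61 in null 2 and 9.88 in wildtype 2. Fcgr2b, the inhibitory Fc receptor of B cells and myeloid cells, was above the others, at 12.93 in null 2 and 12.66 in wildtype 2 against 10.51 to 12.17. The signalling genes named here were also chosen after their values were seen.

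Some markers of myeloid cells were high in these 2 lymphomas. The mean of the 13 tested macrophage and monocyte genes (of 14 listed) was 7.84 in null 2 and 7.02 in wildtype 2, against 5.38 to 6.96 in the other 10, and 2 of the 13, Cd14 and Adgre1, were above the others in both, beside 5.6% of all genes. The other markers did not all follow: Csf1r, the receptor for a macrophage growth factor, was 5.56 in null 2 and 4.45 in wildtype 2, against 4.57 to 5.83, and the lysosomal protease gene Lgmn was 11.27 in null 2 and 9.33 in wildtype 2, against 10.10 to 11.92. The mean of 6 neutrophil genes was 9.21 in null 2 and 8.55 in wildtype 2, inside the others' range of 5.55 to 9.54. The markers named here were chosen after their values were seen. Cd14, a coreceptor for bacterial lipopolysaccharide, was 7.50 in null 2 and 7.93 in wildtype 2, against 4.32 to 6.12. Adgre1, a macrophage surface marker, was 8.22 in null 2 and 6.55 in wildtype 2, against 4.30 to 6.33. By genotype the log2 of the summed level of the macrophage and monocyte list ran between 11.6 and 13.2 in null and between 10.6 and 12.9 in wildtype lymphomas. High levels of this list were not particular to null 2 and wildtype 2. Null 5 had a list mean of 6.96 and the highest summed level, 13.224, beside 13.214 in null 2 and 12.88 in wildtype 2. The part of macrophages and monocytes in the low receptor values was not tested.

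**Figure D4:**
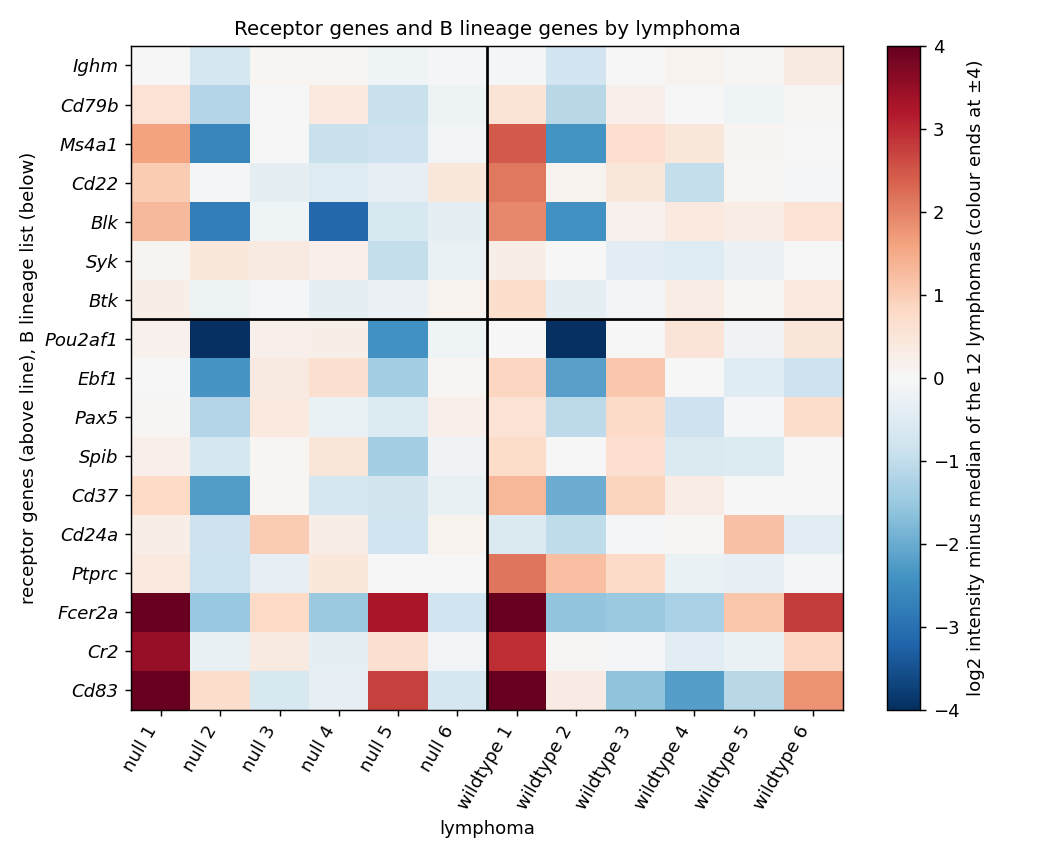
Colour gives the log2 intensity minus the median over 12 lymphomas, for 7 receptor genes (above the line) and 10 genes of the B lineage list (below), with null lymphomas left of wildtype lymphomas. Null 2 and wildtype 2 are deep blue for Pou2af1 and pale for Ighm, Cd22, Syk and Btk, and null 4 is blue for Blk.

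Null 1 and wildtype 1, highest for Ms4a1, were above the other 10 on all 3 Blk probes, all 3 Cd22 probes and both Cd79b probes, again given without a test, and 10.2% of tested genes were above the others in both. For Ms4a1 itself they were at 9.31 and 10.17, against 5.09 to 8.37. Ighm, Syk and Btk did not share this in both lymphomas: on its brighter probe Ighm was 14.28 in null 1 and 14.23 in wildtype 1, within 13.51 to 14.63. Wildtype 1, but not null 1, was above the others on Ighm probe ILMN_2744660 (14.62 against at most 14.46) and for Btk (13.07 against at most 12.745). Cr2, a complement receptor, was 8.24 in null 1 and 7.72 in wildtype 1, against 4.31 to 5.58. Fcer2a (CD23) was 13.05 in null 1 and 12.22 in wildtype 1, against 4.42 to 9.25. Both genes were chosen, like Cd3d below, after their values were seen. They belong to the B lineage list, of which 4 of 11 tested genes were above the other 10 in both lymphomas. Of 24 tested adaptors and effectors, 11 were above the other 10 in both. Some T cell markers were high too: the mean of 13 tested T cell genes was 9.74 in null 1 and 8.42 in wildtype 1, against 5.71 to 8.32. The 8.32 was wildtype 6, close to wildtype 1. Of the 13, 6 were above the other 10 in both, beside 10.2% of all tested genes. Cd4, also chosen afterwards, was 5.56 in null 1 and 4.58 in wildtype 1, inside the others' range of 4.39 to 7.48. Cd3d, a chain of the T cell receptor complex, was 11.95 in null 1 and 9.37 in wildtype 1, against 4.58 to 8.78. By genotype the log2 of the summed T cell list ran between 11.9 and 14.5 in null and between 12.1 and 13.4 in wildtype lymphomas. Their part in the values of these lymphomas was not tested.

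The other genes of the pathway were taken from 5 lists of 64 genes, of which 59 were on the array and 53 were tested. Between null and wildtype lymphomas 0 passed in either direction, beside 0.0159% of all probes tested. None had an unadjusted p under 0.05, beside 1.43% of all probes. In null lymphomas 21 were higher and 32 lower, where 50.5% of all probes were lower. By the naming rule, the members of each list with the smallest p are given as values only. In the coreceptor list (5 tested, median log2 change -0.04) Ifitm1, an interferon-induced membrane protein, differed by 0.84. Among 24 adaptors and effectors (median -0.06) Pik3cd, the B cell phosphoinositide 3-kinase catalytic subunit, differed by -0.50 and Plcg2, the phospholipase C gamma of B cells, by -0.20. Over all 18921 probes the median was -0.00285.

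Among 17 inhibitory receptors and phosphatases (median -0.05) Cblb, a ubiquitin ligase that restrains receptor signalling, differed by -0.51 and Ptprj, the phosphatase CD148, by -0.46. Among 6 tested kinases of the Src, Syk and Tec families (median -0.31) Zap70, the relative of Syk that T cells use, differed by -1.32 and Tec by -0.36. Yes1, a further Src family kinase, was detected on no array. Ptprc (CD45), the phosphatase that keeps Src family kinases active, differed by -0.64. In limma all of these had an adjusted p of 1.00.

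Markers of other cells were listed as well, and no gene of any such list passed, beside 0.0159% of all probes. Median log2 changes were -0.24 for the B lineage (11 tested), -0.35 for early B cells (6), -0.17 for plasma cells (6), -0.27 for T cells (13) and -0.70 for NK cells (5). They were 0.18 for macrophages and monocytes (13), 0.49 for neutrophils (6) and 0.55 for the erythroid lineage (5). The mean of the B lineage list per array ran between 5.57 and 9.28 in null and between 5.82 and 9.57 in wildtype lymphomas, and that of the T cell list between 5.71 and 9.74 in null and between 6.12 and 8.42 in wildtype lymphomas. The early B cell list ran between 5.31 and 7.46 in null and between 5.23 and 7.61 in wildtype lymphomas, plasma cells between 6.88 and 7.52 in null and between 6.94 and 8.32 in wildtype lymphomas, and NK cells between 5.41 and 6.27 in null and between 5.42 and 7.97 in wildtype lymphomas. The macrophage list ran between 5.59 and 7.84 in null and between 5.38 and 7.02 in wildtype lymphomas, neutrophils between 6.72 and 9.54 in null and between 5.55 and 8.97 in wildtype lymphomas, and erythroid cells between 5.17 and 8.84 in null and between 5.19 and 7.64 in wildtype lymphomas. Defining markers detected on no array included Rag2, Dntt and Vpreb2 of early B cells, Prdm1 and Jchain of plasma cells, Cd8a of T cells and Ncr1 and Gzmb of NK cells.

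The gene whose pattern over the 12 lymphomas was most like each member was found by Pearson r among 12838 other tested genes, as a description. For Ms4a1 these were Cd37 (0.976), a tetraspanin of B cells, Gga2 (0.963) and Zfp318 (0.957). Ighm was nearest to Bach2 (0.972), a B cell transcriptional repressor, and Blk to Ccnd2 (0.928), which encodes cyclin D2. Cd79b was nearest to the target of probe ILMN_1253602 (0.973), listed under a RIKEN clone name, Cd22 to F630107D10RIK (0.959), Syk to Cables2 (0.925) and Btk to Bin1 (0.923). Among the members themselves Blk and Btk had an r of 0.861 and Ighm and Cd79b 0.774, while Ighm and Cd22 had -0.06.

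Promoters of Cd22 and Btk are shown because on their brightest probes both lay within the range of the other lymphomas in null 2 and wildtype 2, where Ebf1 and Pou2af1 were not detected. For Btk the margin was narrow, 11.982 in wildtype 2 against 11.978 in null 4. The dimmest Cd22 probe was below the others in both. Promoters of Ighm, Cd79b, Ms4a1 and Blk were not available, so the printed windows have no comparison with those of low members. Any link between these promoters and the levels was not tested. The promoters run 250 bases before to 50 bases after the RefSeq start on GRCm38.p6, on the minus strand, at chr7:30878979-30879278 for Cd22 and chrX:134583091-134583390 for Btk. Capitals mark the EBF core CCCNNGGG, and both strands were also searched for the octamer ATGCAAAT and the Myc E-box CACGTG.
Cd22: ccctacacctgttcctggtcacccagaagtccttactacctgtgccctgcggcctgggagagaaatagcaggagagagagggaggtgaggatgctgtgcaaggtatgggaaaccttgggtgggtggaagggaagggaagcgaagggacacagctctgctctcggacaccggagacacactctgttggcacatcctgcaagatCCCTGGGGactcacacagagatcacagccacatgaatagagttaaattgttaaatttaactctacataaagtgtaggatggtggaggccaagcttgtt
Btk: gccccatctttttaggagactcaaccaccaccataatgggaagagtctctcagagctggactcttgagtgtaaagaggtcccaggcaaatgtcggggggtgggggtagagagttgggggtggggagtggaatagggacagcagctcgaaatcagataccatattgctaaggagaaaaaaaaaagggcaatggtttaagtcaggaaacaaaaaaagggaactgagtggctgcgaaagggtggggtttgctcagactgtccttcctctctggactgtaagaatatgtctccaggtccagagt
The Cd22 window held 1 EBF core, which 13.7% of 32851 promoters of this length hold, and no octamer or E-box, which 1.74% and 7.15% hold. The Btk window held none of the 3, and neither did the Syk windows, which are not printed. A match describes letters in this window and is not a bound site.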

How the data were processed

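RNA of sorted lymphomas was labelled and hybridised per the labels' protocols. Deposited intensities are bead means for each probe, without normalization, per the file headers. Deposited detection values are a fraction that equals 1 minus the detection p-value in the deposited p-value table. The deposited normalized table holds log2 values. Tools named in the submitters' processing notes were limma 3.12.1, R 2.15.1 and BeadStudio.

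From the intensities, limma 3.58.1 in R 4.3.3 computed background correction (normexp with 936 negative controls), an offset of 16, quantile normalization and log2 (neqc), which matched the deposited log2 table within 5e-09. Probes with a detection p under 0.05 on at least 3 of 12 arrays were tested (18921), null minus wildtype, by lmFit and eBayes without covariates, with Benjamini-Hochberg adjustment over all of them. The fits were checked on simulated data. For lists and correlations each gene was its probe with the highest mean (12845 genes). The relations with Ms4a1 used 100000 permutations, two-sided, with exact permutation for the 6 samples of a BeadChip. Relations were planned for all members; Cd79a and Lyn gave none.

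Groups and replicate numbers come from the sample titles. Members and lists were chosen with earlier results of these data known. Genes named are all member probes, Smchd1, the passing members of each list (at most 4) or the 2 of each pathway list with the smallest unadjusted p, and the gene most like each member (3 for Ms4a1); others are said to be chosen afterwards. A gene taken by this rule is not reported here. Lymphomas low in Ms4a1 were neither averaged nor tested as a group, because a measured value chose them. Probe sequences were not used here. Array number limits precision. Alternatives were other background corrections, normalizations, offsets and filters, the BeadChips, a replicate block, array weights and left-out arrays.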

Additional observations from a re-analysis of the deposited data

Results flagged for a closer look

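Dixon's test of the lowest and highest sample of a group was applied to the member probes, 26 groups of 6 lymphomas, and 6 groups had a lymphoma set apart from the nearest other by more than the 95% critical share of the group's range. Chance flags about 1 in 20 groups, and these groups share lymphomas. On the brighter Ighm probe, null 2 was lowest of its group at 13.568, with the nearest other at 14.093, and wildtype 2 was lowest of its group at 13.511, with the nearest other at 14.229. On Cd79b probe ILMN_2661523, wildtype 2 was lowest at 11.55, with the nearest other at 13.201. On Cd22 probe ILMN_1221913, null 1 was highest at 10.358 (nearest other 9.215) and wildtype 1 was highest at 11.323 (nearest other 9.392). On Cd22 probe ILMN_3079866, null 1 was highest at 7.395, with the nearest other at 4.946.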

How the results depend on the processing

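Of 342 log2 changes of member probes under the alternatives, 0 passed an adjusted p of 0.05 in limma, 328 kept their direction and 14 turned. Turned values were 0.21 and 0.060 for the Ighm probes and -0.27 for Syk on BeadChip 1 alone, and 0.51, 0.56 and 0.031 for the Cd22 probes on BeadChip 2 alone. Without null 2 they were 0.024 for Ighm ILMN_2744657 and 0.068 for Cd79b ILMN_2610822, and without null 5 this Cd79b probe gave 0.012. Without wildtype 1 they were 0.0057 for that Cd79b probe and 0.10, 0.10 and 0.0092 for the Cd22 probes. Without null 1, null 2, wildtype 1 and wildtype 2, chosen after seeing the data, Ighm ILMN_2744660 gave 0.031. With 1 array left out in turn the lowest values of these probes were -0.23 for Ighm ILMN_2744657, -0.33 for Cd79b ILMN_2610822 and -0.51, -0.49 and -0.74 for the Cd22 probes. The cause was not tested.

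Over all probes, 3 were called, against 1 among probes detected on all 12 arrays (fewer probes tested), 1 on BeadChip 1 alone and 0 on BeadChip 2 alone (fewer arrays), 6 without the 4 lymphomas just named, and 3 to 5 when 1 array was left out, the 5 without wildtype 2. Member probes called were 0 throughout. With the replicate number as a block (replicate block) 3 probes and 0 member probes were called. The numbers are not shown to pair the samples: deviations of null and wildtype lymphomas with the same number correlated between -0.25 and 0.66. Of 6 null lymphomas, 2 were best matched by their own number. These were null 1 (0.66 with wildtype 1) and null 2 (0.65 with wildtype 2), at the high and low ends of the Ms4a1 range. The permutations for the relations with Ms4a1 treated all 12 lymphomas as separate observations.

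The number of members correlated with Ms4a1 by Pearson r, 4 in all, was 0 on BeadChip 1 alone and 0 on BeadChip 2 alone (6 samples each). It was 1 without the 4 lymphomas, and 3 to 5 when 1 array was left out. Ighm lost its call without null 2 (r = 0.544) or wildtype 2 (0.559) and with no background correction (0.551). Cd22 passed without wildtype 2 (0.667) or wildtype 4 (0.716), with no background correction (0.708), with median scaling (0.662), with an offset of 50 (0.648) and when centred within BeadChip (0.623), and it turned to -0.067 without null 1 and wildtype 1, a setting also chosen after seeing the data. The sign for Syk turned to 0.017 with no background correction, 0.38 with median scaling, 0.18 on BeadChip 1 alone and 0.19 without null 2, and was lowest at -0.26 without wildtype 1. The arrays' brightness differed, with mean raw intensities of 254.65 to 599.15, and Ms4a1 and Blk probe ILMN_2697505 in null 2, Lyn on every array and Cd22 probe ILMN_3079866 on 6 arrays were not above background, so values there are only bounds.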
